A study of Mus musculus with 16 samples.

Results

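Neurexins, neuroligins and neighbouring adhesion genes were followed across astrocytes sorted by an Il33 reporter. The 8 genes Nrxn2, Nrxn3, Nlgn1, Nlgn2, Nlgn3, Nrcam, Ncam1 and Lrp4 were taken by symbol from a table of 39171 features. All 8 passed the filter on low values, as did 16340 features in all. Nrxn3 was higher in reporter-positive than in reporter-negative astrocytes of both regions, at 115 against 57.4 FPKM in the thalamus and 99.1 against 33.9 FPKM in the spinal cord. Lrp4 was lower in the positive libraries of both regions, at 7.82 against 15.3 FPKM and 12.6 against 23.3 FPKM. Nlgn2 was lower in the positive libraries of the spinal cord, and Nrcam was lower in the spinal cord than in the thalamus among negative libraries. Several of these calls rested on single libraries, which are named beside each.

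Neurexins are single-pass membrane proteins best known from presynaptic terminals, where they bind neuroligins, leucine-rich repeat proteins and secreted organisers across the synaptic cleft. Neuroligins are their classical postsynaptic partners, and in mouse astrocytes neuroligins contact neuronal neurexins while the astrocyte grows its fine processes. Nrcam and Ncam1 are immunoglobulin adhesion molecules that astrocytes carry on processes around synapses, and Lrp4 is a receptor for agrin that is best known from the neuromuscular junction.

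The study took 4 C57BL/6 mice at postnatal day 15 and sorted astrocytes of the thalamus and of the spinal cord into reporter-positive and reporter-negative cells, which gave 16 libraries in 4 groups of 4. Every mouse carried 1 copy of an IL-33 mCherry reporter allele, so positive and negative cells had the same genotype, and an Aldh1l1-GFP transgene driven from an astrocyte gene. The sources used here do not state how GFP was gated. Each mouse gave 1 library to each group, so the replicates are separate animals and the groups share them. Values are FPKM, fragment counts scaled for transcript length and library depth, and the depth behind them is unknown.

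The labelled cell type was checked against 7 marker lists. The summed FPKM of 10 astrocyte markers was 4315 to 5352 in thalamic negative, 4521 to 5376 in thalamic positive, 5488 to 7127 in spinal cord negative and 8022 to 8709 in spinal cord positive libraries. Of these markers 3 were called higher and 1 lower in thalamic positive libraries, and 5 higher in spinal cord positive ones. These are 40% and 50%, against 25.2% and 19.6% of all features called in either direction. Negative libraries also held markers of other cells. The sum of 14 oligodendrocyte markers was 495 to 1067 and 3849 to 3954 FPKM in the thalamic and spinal cord negative libraries, against 82.2 to 120 and 165 to 179 in the positive ones. For 11 markers of oligodendrocyte precursors these ranges were 273 to 426 and 653 to 832 in negative libraries, and 164 to 249 and 240 to 281 in positive libraries. In positive libraries the precursor sums came mostly from Olig1, at means of 103 and 177 FPKM, and Olig2, at 68.6 and 56.8 FPKM. For 12 ependymal markers the ranges were 423 to 749 and 141 to 186 in negative libraries, and 7.79 to 8.92 and 4.12 to 7.65 in positive libraries. The sums of neuron markers were 227 to 274, 173 to 194, 195 to 235 and 155 to 163 FPKM in the order thalamic negative, thalamic positive, spinal cord negative and spinal cord positive, mostly from Map2, whose transcript astrocytes also hold. Microglia and endothelial sums did not exceed 53.4 FPKM in any library. Called lower in positive libraries of the thalamus and of the spinal cord were 13 and 14 of 14 oligodendrocyte markers, 7 and 8 of 11 precursor markers, 12 and 12 of 12 ependymal markers and 3 and 8 of 10 endothelial markers. Of 9 tested neuron markers 4 and 2 were called lower. Over all features 13.6% and 10.5% were called lower. In thalamic and spinal cord positive libraries 11 and 9 ependymal, 8 and 8 endothelial and 8 and 6 precursor markers averaged under 1 FPKM. For neuron markers these numbers were 7 and 7 of 12, and for oligodendrocyte markers 2 and 3 of 14. Such markers could pass the filter on low values through negative libraries alone, so the counts of all these lists support no direction. These lists moved with both positive against negative comparisons, and their part in the results was not tested. In such bulk libraries fewer cells of a type and less RNA per cell cannot be told apart. The mitochondrial share of all FPKM ran from 43.7% to 73.9%, with the 2 highest shares in the negative libraries of mouse 1. Mouse 1 also differed from the others in Xist, the X-inactivation transcript, at 175 to 468 FPKM against at most 1.46 in mice 2 to 4. The Y-linked gene Ddx3y went the other way, at 0.0717 to 0.0976 FPKM in mouse 1 and 6.65 to 11.9 FPKM in mice 2 to 4. By these transcripts mouse 1 differed in sex from the others, and the part of sex in the results was not tested.

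**Figure D1:**
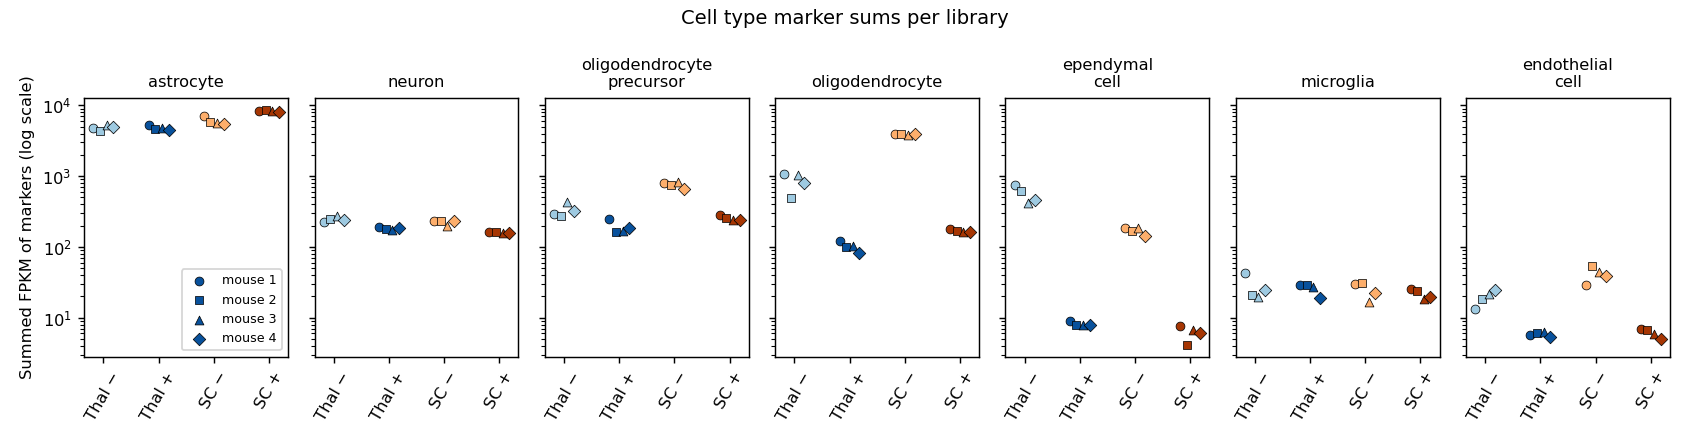
Summed FPKM of the markers of 7 cell types in each library, on a log scale, by group (Thal: thalamus, SC: spinal cord, minus and plus: reporter gate) with 1 symbol per mouse. Oligodendrocyte sums of 3849 to 3954 FPKM in spinal cord negative libraries stand above the 165 to 179 FPKM of spinal cord positive libraries.

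Nrxn3 (ENSMUSG00000066392) lies on the plus strand of chromosome 12 at 88722876 to 90334935 in GENCODE vM21 on GRCm38 and spans 1612060 bases. Its FPKM pools transcripts from several starts, so long and short neurexins cannot be told apart in these values. In the RefSeq promoter table (GRCm38.p6), 3 of its starts fell within 100 bases of GENCODE starts, and they are shown because they are annotated starts of the long and short products that the single Nrxn3 value sums. Even the first of them, at 88794504, lies inside the gene span. The bases just before that start read like a splice acceptor, so it may not be a true promoter. Transcripts from the first start encode a protein of 1571 codons, those from the second at most 1100 codons, and those from the last at most 567 codons, per GENCODE. The promoter of Nlgn2 is shown beside them because this gene moved the other way in the spinal cord. Each sequence runs 5′ to 3′ on the gene's strand, with 250 bases before the start and 50 bases from it on, and capitals mark matches to GGGCGG.
Nrxn3 (plus strand, chr12:88794254-88794553): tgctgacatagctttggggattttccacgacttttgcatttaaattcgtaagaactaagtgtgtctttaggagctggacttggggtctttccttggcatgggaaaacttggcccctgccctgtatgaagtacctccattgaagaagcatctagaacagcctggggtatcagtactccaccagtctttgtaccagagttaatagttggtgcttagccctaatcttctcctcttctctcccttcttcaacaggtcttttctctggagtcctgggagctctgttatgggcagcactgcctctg
Nrxn3 (plus strand, chr12:88953140-88953439): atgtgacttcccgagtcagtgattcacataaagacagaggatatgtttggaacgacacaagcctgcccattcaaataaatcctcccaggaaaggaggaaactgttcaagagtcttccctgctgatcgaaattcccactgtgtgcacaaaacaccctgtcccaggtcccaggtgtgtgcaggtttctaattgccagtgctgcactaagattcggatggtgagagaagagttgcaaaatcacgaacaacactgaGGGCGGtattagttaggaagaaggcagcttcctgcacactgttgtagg
Nrxn3 (plus strand, chr12:89812233-89812532): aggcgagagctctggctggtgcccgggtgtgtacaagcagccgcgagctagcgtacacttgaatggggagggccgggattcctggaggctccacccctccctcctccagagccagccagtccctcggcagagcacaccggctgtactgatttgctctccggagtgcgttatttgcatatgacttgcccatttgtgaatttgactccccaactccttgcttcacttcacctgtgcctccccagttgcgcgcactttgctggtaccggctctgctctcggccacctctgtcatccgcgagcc
Nlgn2 (minus strand, chr11:69837735-69838034): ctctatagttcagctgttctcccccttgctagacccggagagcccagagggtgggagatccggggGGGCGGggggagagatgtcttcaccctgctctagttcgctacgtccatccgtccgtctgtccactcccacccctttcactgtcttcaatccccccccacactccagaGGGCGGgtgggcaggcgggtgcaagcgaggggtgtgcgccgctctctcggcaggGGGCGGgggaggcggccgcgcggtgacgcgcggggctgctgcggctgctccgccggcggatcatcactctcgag

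A set of 5 short motifs was searched on both strands, and no motif of the set contains another. GGGCGG was found in 35.7% of all 32851 promoters of the table, TATAAA in 13.6%, CCAAT in 37.4%, CACGTG in 7.15% and TGACGTCA in 1.79%. The Nlgn2 promoter held 3 GGGCGG matches and the second Nrxn3 promoter held 1, while the first and last Nrxn3 promoters held none of the 5 motifs. The GC content was 47.3%, 47.7% and 60.7% in the 3 Nrxn3 promoters and 68.7% in that of Nlgn2, against a median of 52.7% over the table. The table also had entries for Nlgn1 and Nrcam, so 4 of the 8 genes were matched.

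Levels can be set side by side because FPKM is per length. Ncam1 had the highest mean over the 16 libraries, at 288 FPKM, above 99.3% of the protein-coding genes tested. Nrxn3 followed at 76.4 FPKM and Nrcam at 59.1 FPKM, above 95.9% and 94.1% of those genes. Nlgn3, Nrxn2, Lrp4 and Nlgn1 lay close together, at 19.7, 15.2, 14.8 and 14.4 FPKM, and Nlgn2 was lowest at 5.82 FPKM, above 45.0% of the genes. The ratio of the highest to the lowest library was 8.54 for Nrxn3, 5.76 for Nlgn2, 5.01 for Lrp4, 3.08 for Nrxn2, 2.26 for Nlgn1, 2.03 for Nlgn3, 1.87 for Nrcam and 1.49 for Ncam1. By this ratio the immunoglobulin adhesion molecules Ncam1 and Nrcam were the steadiest of the 8 genes and Nrxn3 the most variable.

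**Figure D2:**
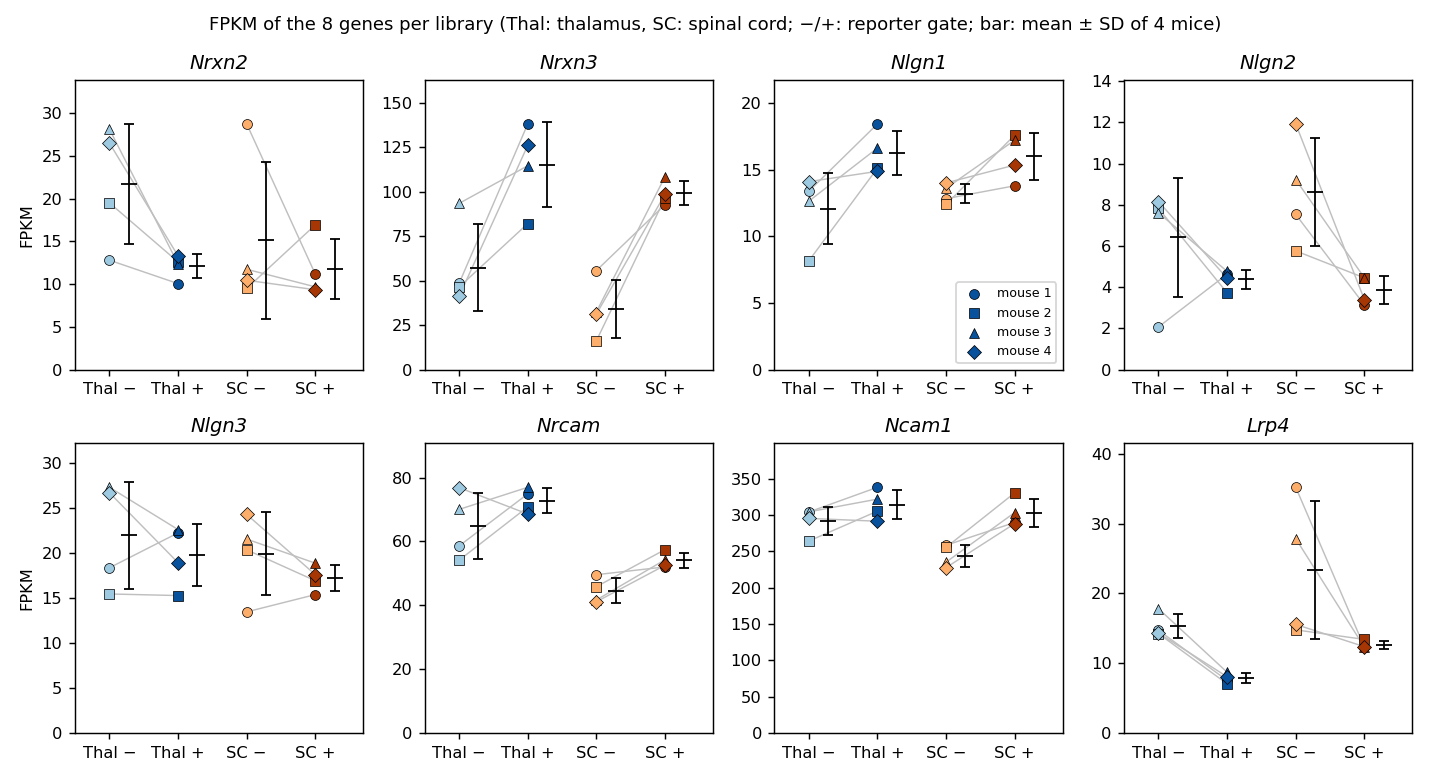
FPKM of the 8 genes in each library (linear axis from 0 in each panel), by group, with grey lines joining the negative and positive library of a mouse and bars giving the mean and SD of 4 mice. The 4 spinal cord positive libraries lie between 92.7 and 109 FPKM for Nrxn3, above all 4 negative libraries of that region.

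Positive and negative libraries of the thalamus were compared first. Of the 8 genes, Nrxn3 was called higher and Lrp4 lower, which is 25.0% of them, and 25.2% of all features tested were called in this comparison, 11.6% higher and 13.6% lower. The groups of 4 did not overlap for 2 of the 8 genes, Lrp4 and Nlgn1, against 25.8% of all features. The median log2 fold change of the 8 genes was -0.01, beside 0.06 over all features. In the spinal cord 3 of the 8 genes were called, Nrxn3 higher and Nlgn2 and Lrp4 lower, which is 37.5%, against 19.6% of all features, 9.04% higher and 10.5% lower. Their groups did not overlap for 5 of the 8 genes, Nrxn3, Nlgn2, Lrp4, Nrcam and Ncam1, against 27.9% of all features. The median there was 0.04 for the 8 genes and 0.09 for all features. Fold changes here and below are limma's, on log2(FPKM + 1) with the standard error, and understate the change of low genes; p-values are adjusted over all 16340 features by Benjamini-Hochberg, with a call under 0.05.

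Nrxn3, in mice 1 to 4, stood at 48.5, 46.4, 93.4 and 41.2 FPKM in thalamic negative libraries and at 138, 82.1, 115 and 126 in thalamic positive ones. Each mouse was higher in its positive library, but the groups overlapped, because the negative library of mouse 3 was above the positive library of mouse 2. The log2 fold change was 1.05 ± 0.32 (adjusted p = 0.0259), a ratio of group means of 2.01. This call was lost without mouse 1 (0.90, adjusted p = 0.0784), without mouse 4 (0.86, adjusted p = 0.191), without the negative library of mouse 2 or 4 (adjusted p = 0.0574 and 0.0694), and without the positive library of mouse 1, 3 or 4 (adjusted p = 0.0705, 0.0576 and 0.0654). Spinal cord libraries held Nrxn3 at 55.7, 16.2, 32.4 and 31.2 FPKM in the negative and 92.7, 96.5, 109 and 98.6 FPKM in the positive gate. The positive libraries were close to each other and all lay above the negative ones, among which mouse 1 was highest and mouse 2 lowest. The log2 fold change was 1.64 ± 0.32 (adjusted p = 0.00197), a ratio of 2.93, and it was called under all 26 alternatives. The change in the spinal cord exceeded that in the thalamus by 0.60 ± 0.45 (95% interval -0.36 to 1.55, adjusted p = 0.598), so a difference between regions was not shown.

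Ordered by group mean, Nrxn3 was highest in thalamic positive libraries (115 ± 24.1 FPKM, SD, n = 4), then spinal cord positive (99.1 ± 6.73), thalamic negative (57.4 ± 24.2) and spinal cord negative (33.9 ± 16.3). The 2 positive groups did not differ beyond their spread (log2 fold change -0.19 ± 0.32, spinal cord against thalamus, adjusted p = 0.849). Spinal cord positive and thalamic negative libraries overlapped through the thalamic negative library of mouse 3, and this pair was not tested. The 2 negative groups differed by -0.79 ± 0.32 (adjusted p = 0.143), and this passed the threshold once mouse 1's spinal cord negative library was left out (-1.06, adjusted p = 0.0345). The authors' deposited table, which compares positive with negative libraries, lists Nrxn3 as the only one of the 8 genes among its 444 features. No feature in it has an adjusted p above 0.00976, so it gives no values for the other genes. The Nrxn3 log2 fold change there is 1.16 with a standard error of 0.185 (adjusted p = 8.69e-09). That is a single value per gene, not 1 per region, so it is unlike the regional changes above.

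Nrxn2 (ENSMUSG00000033768; chromosome 19, 6418731 to 6544169, plus strand) passed no test by gate or region with all libraries. In thalamic negative libraries it was at 12.8, 19.5, 28.1 and 26.5 FPKM, and in thalamic positive ones at 10.1, 12.6, 12.4 and 13.3. Every mouse was lower in its positive library, and the groups overlapped through the negative library of mouse 1. The log2 fold change of -0.75 ± 0.32 missed the threshold (adjusted p = 0.102), and passed it without mouse 1 (-0.89, adjusted p = 0.0191), without its thalamic negative library (-0.97, adjusted p = 0.0354) or without its spinal cord negative library (adjusted p = 0.0333). Nrxn2 in the spinal cord was at 28.7, 9.50, 11.7 and 10.5 FPKM in negative and 11.2, 16.9, 9.68 and 9.34 FPKM in positive libraries. The negative library of mouse 1 was far above the rest, and the log2 fold change was -0.23 ± 0.32 (adjusted p = 0.663). Its sign turned without mouse 1 (0.12, adjusted p = 0.759) and without that negative library alone (0.11, adjusted p = 0.806). Between negative libraries, spinal cord against thalamus was -0.58 ± 0.32 (adjusted p = 0.310), and -1.14 without mouse 1 (adjusted p = 0.0131) or -0.92 without its spinal cord negative library (adjusted p = 0.0372). Of 13812 exon bases of Nrxn2, 207 are shared with the opposite-strand gene Gm14964, which was listed at 4.72 to 27.6 FPKM. The sources used here do not say whether counting used the strand, so reads within these shared bases cannot be assigned to either gene.

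The mix of the 2 genes is given as a description, with no test. Nrxn3 made up 71.8% ± 8.18 (SD, n = 4) of their summed FPKM in thalamic negative and 90.2% ± 2.67 in thalamic positive libraries. For the spinal cord the shares were 69.3% ± 5.75 and 89.4% ± 3.08. The highest share in any negative library was 79.1% and the lowest in any positive library 85.1%, so the gates did not overlap.

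**Figure D3:**
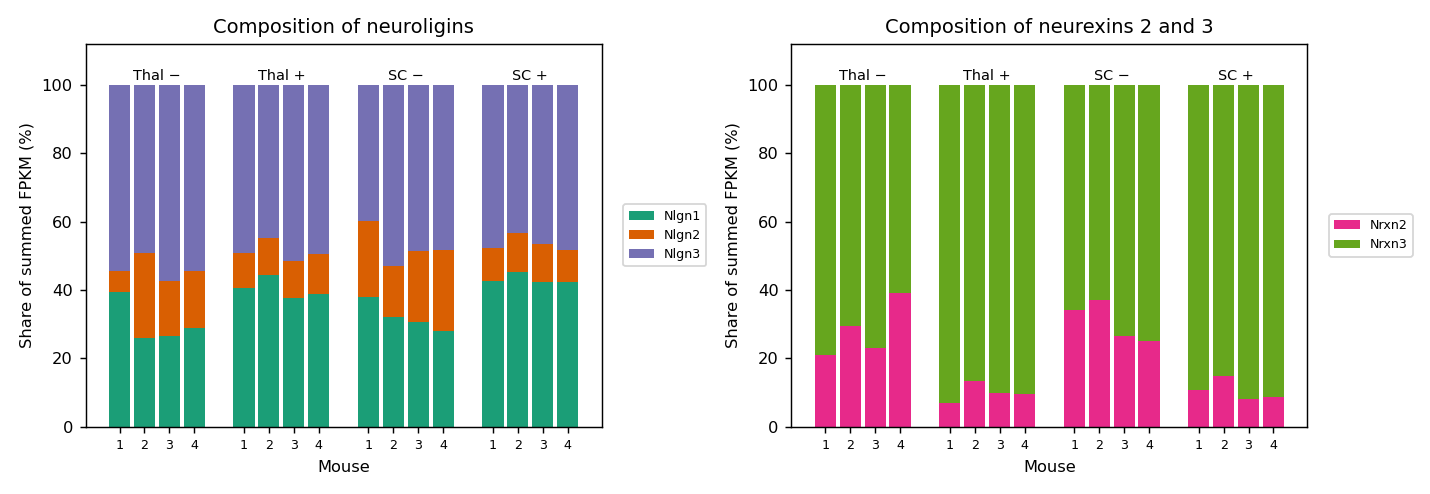
Share of each gene in the summed FPKM of the 3 neuroligins (left) and of Nrxn2 and Nrxn3 (right), in percent, with 1 bar per library in the order of mice 1 to 4 within each group. Nrxn3 takes 85.1% or more of its bar in each positive library and 79.1% or less in each negative library.

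Among the neuroligins, Nlgn2 (ENSMUSG00000051790; chromosome 11, 69823122 to 69837784, minus strand), the family member known from inhibitory synapses, was lower in positive astrocytes of the spinal cord. Its values there were 7.53, 5.76, 9.22 and 11.9 FPKM in negative and 3.14, 4.45, 4.46 and 3.39 FPKM in positive libraries. All 4 positive libraries lay below all 4 negative ones. The log2 fold change was -0.95 ± 0.31 (adjusted p = 0.0442), a ratio of 0.448, and this was close to the threshold, with a call under only 10 of 26 alternatives. It was lost without mouse 2, 3 or 4 (adjusted p = 0.0666, 0.162 and 0.236), without the negative library of mouse 1, 3 or 4 in this region (0.0627, 0.0885 and 0.112) or the positive library of mouse 1, 2, 3 or 4 (0.110, 0.0687, 0.0692 and 0.105), and without any of the 4 thalamic positive libraries, which share the fit but not this comparison (0.0555 to 0.0584). With a pseudocount of 0.1 the adjusted p was 0.0506, and with no filter on low values it was 0.0708. In the thalamus Nlgn2 was at 2.07, 7.83, 7.62 and 8.16 FPKM in negative and 4.63, 3.73, 4.77 and 4.44 FPKM in positive libraries. Mouse 1 had the lowest negative value, below every positive library, while the other 3 mice were lower in the positive library. The log2 fold change was -0.34 ± 0.31 (adjusted p = 0.453), and -0.74 without mouse 1 (adjusted p = 0.0422) or -0.72 without its negative library alone (adjusted p = 0.0176). The difference between the regional changes was -0.61 ± 0.44 (95% interval -1.56 to 0.33, adjusted p = 0.578).

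Nlgn1 (ENSMUSG00000063887; chromosome 3, 25426215 to 26332460, minus strand), known from excitatory synapses, was at 13.4, 8.16, 12.6 and 14.1 FPKM in thalamic negative and 18.4, 15.1, 16.6 and 14.9 FPKM in thalamic positive libraries. The groups did not overlap, but the log2 fold change of 0.42 ± 0.16 missed the threshold (adjusted p = 0.0708). It passed without the thalamic negative library of mouse 1 or of mouse 4 (0.48 and 0.50, adjusted p = 0.0490 for both). Spinal cord values of Nlgn1 were 12.8, 12.4, 13.6 and 14.0 FPKM in negative and 13.8, 17.6, 17.2 and 15.4 FPKM in positive libraries, with a log2 fold change of 0.25 ± 0.16 (adjusted p = 0.304). Each mouse was higher in its positive library, and the groups overlapped only through mouse 1. Nlgn1 exons share 1229 bases with the opposite-strand gene A830092H15Rik, listed at up to 2.42 FPKM.

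Nlgn3 (ENSMUSG00000031302; chromosome X, 101299168 to 101325963, plus strand), an X-linked neuroligin found at both excitatory and inhibitory synapses, showed no call. Its values were 18.4, 15.5, 27.3 and 26.7 FPKM in thalamic negative and 22.3, 15.3, 22.6 and 18.9 FPKM in thalamic positive libraries. Those of the spinal cord were 13.5, 20.4, 21.6 and 24.3 FPKM in negative and 15.4, 16.9, 18.9 and 17.6 FPKM in positive libraries. The groups overlapped in both regions, and the log2 fold changes were -0.12 ± 0.21 (95% interval -0.58 to 0.34, adjusted p = 0.709) and -0.17 ± 0.21 (-0.63 to 0.28, adjusted p = 0.615). Its exons share 3823 bases with the same-strand gene Gm21986, listed at up to 6.94 FPKM, so its level is uncertain. Between regions no neuroligin was called, with log2 fold changes from -0.18 to 0.46 over both gates and adjusted p from 0.424 to 0.976.

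Nlgn2 made up 20.4% ± 3.85 (SD, n = 4) of the summed neuroligin FPKM in spinal cord negative and 10.4% ± 0.998 in spinal cord positive libraries. In the thalamus its share was 15.9% ± 7.68 and 10.9% ± 0.570, and that of the negative library of mouse 1 was 6.12%. Nlgn1 took 30.2% ± 6.35 of thalamic negative and 40.4% ± 2.85 of thalamic positive sums, against 32.2% ± 4.23 and 43.1% ± 1.37 in the spinal cord groups. Nlgn3 was the most abundant neuroligin in all 4 groups by mean share, from 46.5% to 53.9%. The summed level was 40.5 ± 9.11, 40.4 ± 5.21, 41.8 ± 7.13 and 37.1 ± 3.60 FPKM in thalamic negative, thalamic positive, spinal cord negative and spinal cord positive libraries. The 4 groups overlapped in this sum.

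Nrcam (ENSMUSG00000020598; chromosome 12, 44328885 to 44601964, plus strand), which binds neurofascin and ankyrins as well as other partners, was the only one of the 8 genes called between regions. Among negative libraries 1 of 8 genes was called, or 12.5%, against 9.81% of all features, and groups did not overlap for 2 of them, Nrcam and Ncam1, against 9.06% of features. Thalamic negative libraries held Nrcam at 58.6, 54.1, 70.0 and 76.9 FPKM and spinal cord negative ones at 49.6, 45.8, 41.7 and 41.1. Every thalamic library was above every spinal cord one. The log2 fold change, spinal cord against thalamus, was -0.52 ± 0.13 (adjusted p = 0.0162), and it was lost without mouse 3 or 4 (-0.45 and -0.40, adjusted p = 0.159 and 0.169) and when only the 2 groups were fitted (adjusted p = 0.185). Among positive libraries Nrcam was at 74.9, 70.8, 77.0 and 68.6 FPKM in the thalamus and 52.0, 57.5, 54.3 and 52.5 FPKM in the spinal cord. The groups were again apart, with a log2 fold change of -0.42 ± 0.13 that missed the threshold (adjusted p = 0.0677). It passed with no filter (adjusted p = 0.0470), with a filter at 5 FPKM (0.0490), when only the 2 groups were fitted (0.00524) and without the thalamic negative library of mouse 1, 2 or 4 (0.0468, 0.0444 and 0.0456). By gate, Nrcam differed by 0.18 ± 0.13 in the thalamus (adjusted p = 0.335) and 0.28 ± 0.13 in the spinal cord (adjusted p = 0.147), where the groups did not overlap.

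None of the 8 genes was called between the regions among positive libraries by limma, against 6.1% of all features, although 2 of them, Nrcam and Lrp4, had an unadjusted p under 0.05. The same 2 genes had groups that did not overlap, against 29.7% of all features. For the difference between the 2 regional gate changes 0 of 8 genes were called by limma, against 2.56% of all features, and 0 had an unadjusted p under 0.05. Median log2 changes of the 8 genes and of all features were -0.19 and 0.00 in the negative regional comparison, -0.11 and 0.00 in the positive one, and 0.11 and 0.02 for the gate difference.

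Ncam1 (ENSMUSG00000039542; chromosome 9, 49502136 to 49798925, minus strand), the neural cell adhesion molecule, was the steadiest of the genes. It was at 304, 264, 304 and 295 FPKM in thalamic negative and 338, 305, 322 and 291 FPKM in thalamic positive libraries, which overlapped. This gave a log2 fold change of 0.11 ± 0.11 (adjusted p = 0.518). Spinal cord libraries held it at 258, 255, 235 and 227 FPKM in the negative and 290, 330, 303 and 288 FPKM in the positive gate. These groups did not overlap, and the log2 fold change of 0.31 ± 0.11 missed the threshold (adjusted p = 0.0644). It passed with no filter on low values (adjusted p = 0.0435) and without the thalamic negative library of mouse 1 (adjusted p = 0.0476). Between negative libraries the spinal cord was lower by group mean, at 244 ± 15.1 against 292 ± 19.0 FPKM (SD, n = 4), with no overlap (log2 fold change -0.26 ± 0.11, adjusted p = 0.178). Its exons share 417 bases with the opposite-strand gene Gm11149, listed at 77.8 to 127 FPKM, so a part of either value may belong to the other.

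Lrp4 (ENSMUSG00000027253; chromosome 2, 91457511 to 91513779, plus strand) fell in positive libraries of both regions. Thalamic negative libraries held it at 14.7, 14.2, 17.8 and 14.3 FPKM and thalamic positive ones at 7.53, 7.03, 8.69 and 8.05. The groups were well apart, and the log2 fold change was -0.88 ± 0.23 (adjusted p = 0.0111), a ratio of 0.512. It was lost without mouse 3 (-0.86, adjusted p = 0.0721) and without mouse 4 (-0.92, adjusted p = 0.0503). Spinal cord negative libraries held 35.2, 14.8, 27.8 and 15.5 FPKM and spinal cord positive ones 12.3, 13.4, 12.3 and 12.4. Positive libraries were nearly equal and below all negative ones, of which mice 1 and 3 were far above mice 2 and 4. Its log2 fold change was -0.75 ± 0.23 (adjusted p = 0.0302), a ratio of 0.539. This call held under 16 of 26 alternatives and was lost without mouse 1, 3 or 4 (adjusted p = 0.155, 0.192 and 0.0595), without the negative library of mouse 1 or 3 (0.0750 and 0.0830), without any of the 4 positive libraries (0.0561 to 0.0694) and when only the 2 groups were fitted (0.0938). Among positive libraries the spinal cord was above the thalamus in every mouse, without overlap, at a log2 fold change of 0.62 ± 0.23 (adjusted p = 0.139), which passed when only those groups were fitted (adjusted p = 0.00220). Among negative libraries the change was 0.50 ± 0.23 with overlapping groups (adjusted p = 0.204).

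**Figure D4:**
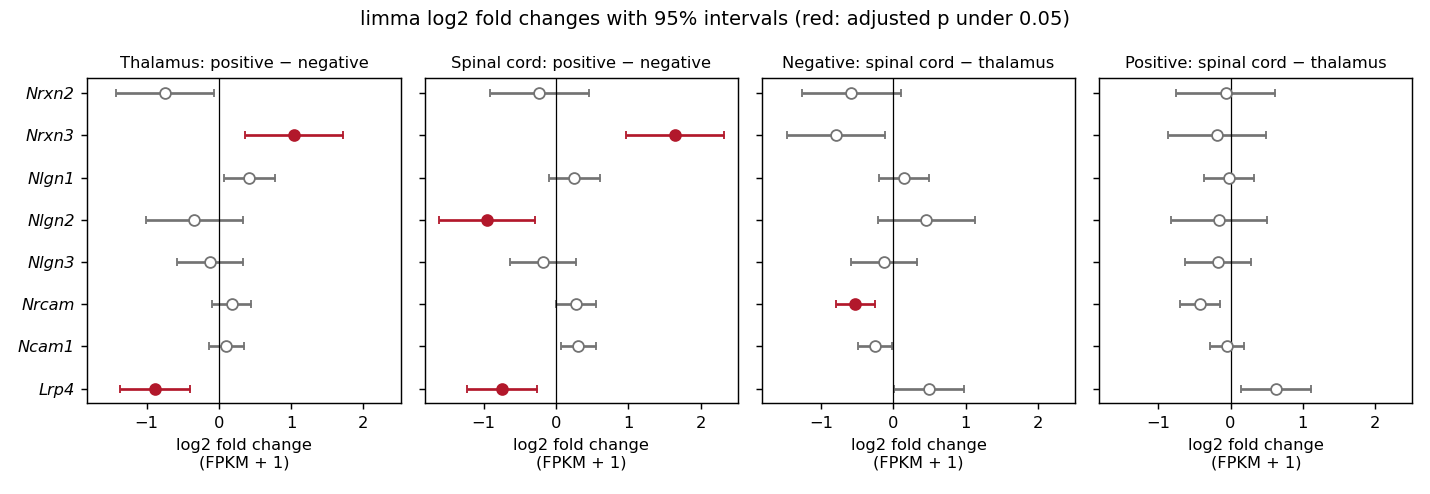
limma log2 fold changes of the 8 genes (x axis, FPKM + 1 scale) with 95% intervals in 4 comparisons, with red filled points for an adjusted p under 0.05. Nrxn3 is right of 0 in both gate comparisons (1.05 and 1.64) and Lrp4 left of 0 in both (-0.88 and -0.75).

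Genes with a pattern like those of Nrxn3, Nlgn2 and Lrp4, the genes called by gate, were sought by the root mean square difference of log2(FPKM + 1) values, each gene centred on its own mean, over the 16 libraries and 10387 protein-coding genes. Nrxn3, whose own root mean square deviation was 0.84, was nearest to Slitrk2 (0.31), Lfng (0.33) and Wnt7a (0.33). Nlgn2, at 0.53, was nearest to Adipor2 (0.25), Rpl17 (0.26) and Fam126a (0.26). Lrp4, at 0.56, was nearest to Scp2 (0.16), Naca (0.19) and H3f3a (0.22).

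Partners of these genes were read from 6 lists of 92 genes, of which 73 could be tested. In the thalamus 7 were called higher and 17 lower in positive libraries, or 32.9%, against 25.2% of all features. Spinal cord calls were 11 higher and 22 lower, or 45.2%, against 19.6% of all features. Of the lower calls, 4 of 17 in the thalamus and 9 of 22 in the spinal cord were genes that did not reach 1 FPKM in 4 of the 8 positive libraries, so they were tested only because of their level in negative libraries. The counts of each list below therefore describe the tested genes and support no direction. Oligodendrocyte and precursor marker sums were also lower in positive libraries, as given above, and their part was not tested. Genes named below passed under every alternative tried for them.

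Of 10 tested neurexin ligands, 3 were lower and 0 higher in the thalamus, and 6 were lower and 1 higher in the spinal cord, which are 30% and 70% against 25.2% and 19.6% of all features. Among the lower calls, 2 of 3 and 4 of 6 were tested only because of their level in negative libraries. C1ql1 was among those of both regions and Lrrtm1 among those of the spinal cord. C1ql1, a secreted C1q-like protein that precursors of oligodendrocytes also express and that is in their marker list, fell from 6.44 to 0.462 FPKM in the thalamus (log2 fold change -2.41 ± 0.25, adjusted p = 1.08e-05). The spinal cord values fell from 29.9 to 0.621 FPKM (-4.22 ± 0.25, adjusted p = 2.83e-08). Lrrtm1, a leucine-rich repeat ligand, fell from 3.45 to 0.189 FPKM in the spinal cord (-1.87 ± 0.22, adjusted p = 3.15e-05). Lrrtm3, of the same family, differed between regions, at 3.43 against 24.9 FPKM in thalamic and spinal cord negative libraries (2.79 ± 0.35, adjusted p = 9.69e-05) and 2.56 against 37.8 FPKM in positive ones (3.43 ± 0.35, adjusted p = 2.07e-05).

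On the neurexin side, which lists other presynaptic organisers, 1 of 9 tested genes was called higher in the thalamus and 0 lower, and 1 higher and 1 lower in the spinal cord, or 11.1% and 22.2%, against 25.2% and 19.6% of all features. Adgrl2, a latrophilin receptor, rose from 15.3 to 31.9 FPKM in the spinal cord (1.04 ± 0.21, adjusted p = 0.00297). It was low in the thalamus, at 1.65 and 0.711 FPKM in negative and positive libraries, and the regional log2 fold changes were 2.62 ± 0.21 and 4.26 ± 0.21 (adjusted p = 1.67e-06 and 1.16e-08). Thalamic positive libraries reached at most 0.921 FPKM, and the lowest thalamic negative library was also at 0.921 FPKM. Adgrl2 was therefore tested only because of its level in the spinal cord, and these regional p-values support no direction.

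Among 20 tested neuroligin inhibitors and scaffolds, 4 were higher and 2 lower in the thalamus, and 5 higher and 3 lower in the spinal cord. These are 30% and 40%, against 25.2% and 19.6% of all features, and each called gene passed the filter in both gates. Mdga2, a membrane protein that binds neuroligins and blocks neurexin binding, was at 30.5 to 60.8 FPKM in thalamic negative and 76.7 to 84.2 FPKM in thalamic positive libraries. The spinal cord ranges were 27.5 to 37.3 FPKM and 67.8 to 76.9 FPKM. The gates did not overlap in either region, and the log2 fold changes were 1.01 ± 0.18 and 1.16 ± 0.18 (adjusted p = 0.000941 and 0.000355). Dlg3, a synaptic scaffold, rose from 3.03 to 10.03 FPKM in the thalamus (1.46 ± 0.31, adjusted p = 0.00359) and from 1.88 to 10.9 FPKM in the spinal cord (2.01 ± 0.31, adjusted p = 0.000353). Shank2, a scaffold of excitatory synapses, fell from 15.3 to 4.29 FPKM in the thalamus (-1.52 ± 0.25, adjusted p = 0.00062). Dlg2, a relative of Dlg3, fell from 6.06 to 1.02 FPKM in the spinal cord (-1.79 ± 0.32, adjusted p = 0.00105).

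Of 16 tested immunoglobulin relatives and their cytoskeletal partners, 1 was higher and 6 lower in each region, or 43.8%, against 25.2% and 19.6% of all features. In the spinal cord 1 of the 6 lower calls was tested only because of its level in negative libraries. Nfasc, the neurofascin of axon initial segments and of oligodendrocytes, fell from 49.5 to 6.53 FPKM in the thalamus (-2.79 ± 0.25, adjusted p = 2.29e-06) and from 221 to 49.8 FPKM in the spinal cord (-2.11 ± 0.25, adjusted p = 3.04e-05). Ank3, ankyrin-G, fell by 2.90 ± 0.34 on the log2 scale in the thalamus (adjusted p = 3.27e-05), to 3.49 FPKM, and in the spinal cord to 2.59 FPKM (-4.87 ± 0.34, adjusted p = 1.8e-07). Ncam2, the relative of Ncam1, was lower in spinal cord than in thalamic positive libraries, at 14.3 against 48.6 FPKM (-1.69 ± 0.26, adjusted p = 0.00108).

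Enzymes and ligands around Ncam1 gave 3 lower and 0 higher calls of 6 tested in each region, or 50%, against 25.2% and 19.6% of all features. In the thalamus 1 of these 3, and in the spinal cord all 3, were tested only because of their level in negative libraries, St8sia2 in both. St8sia2, which adds polysialic acid to Ncam1, fell from 7.89 to 0.348 FPKM in the thalamus (-2.67 ± 0.22, adjusted p = 1.05e-06) and from 10.6 to 0.343 FPKM in the spinal cord (-3.10 ± 0.22, adjusted p = 1.91e-07). Ncan, neurocan, a proteoglycan that binds Ncam1, fell from 842 to 313 FPKM in the thalamus (-1.42 ± 0.23, adjusted p = 0.000511). Ncam1 itself was not called in either region.

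Around Lrp4, 1 of 12 tested ligands and receptor relatives was higher and 3 were lower in the thalamus, and 3 were higher and 3 lower in the spinal cord. These are 33.3% and 50%, against 25.2% and 19.6% of all features. In each region 1 of the 3 lower calls was tested only because of its level in negative libraries, which in the thalamus was Musk. App, the amyloid precursor protein, fell with Lrp4, from 25.3 to 10.1 FPKM in the thalamus (-1.26 ± 0.16, adjusted p = 4.96e-05) and from 60.8 to 12.6 FPKM in the spinal cord (-2.18 ± 0.16, adjusted p = 2.05e-07). Dok7, the cytoplasmic activator of the muscle kinase that works with Lrp4, rose from 11.9 to 28.4 FPKM in the spinal cord (1.23 ± 0.23, adjusted p = 0.00183). The kinase itself, Musk, was at 4.25 FPKM in thalamic negative and 0.0107 FPKM in thalamic positive libraries. Vldlr, a lipoprotein receptor relative, fell from 14.9 to 2.58 FPKM in the spinal cord (-2.10 ± 0.27, adjusted p = 6.68e-05), while Ror2, a receptor kinase related to Musk, rose from 2.11 to 8.39 FPKM (1.64 ± 0.29, adjusted p = 0.00101).

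**Figure D5:**
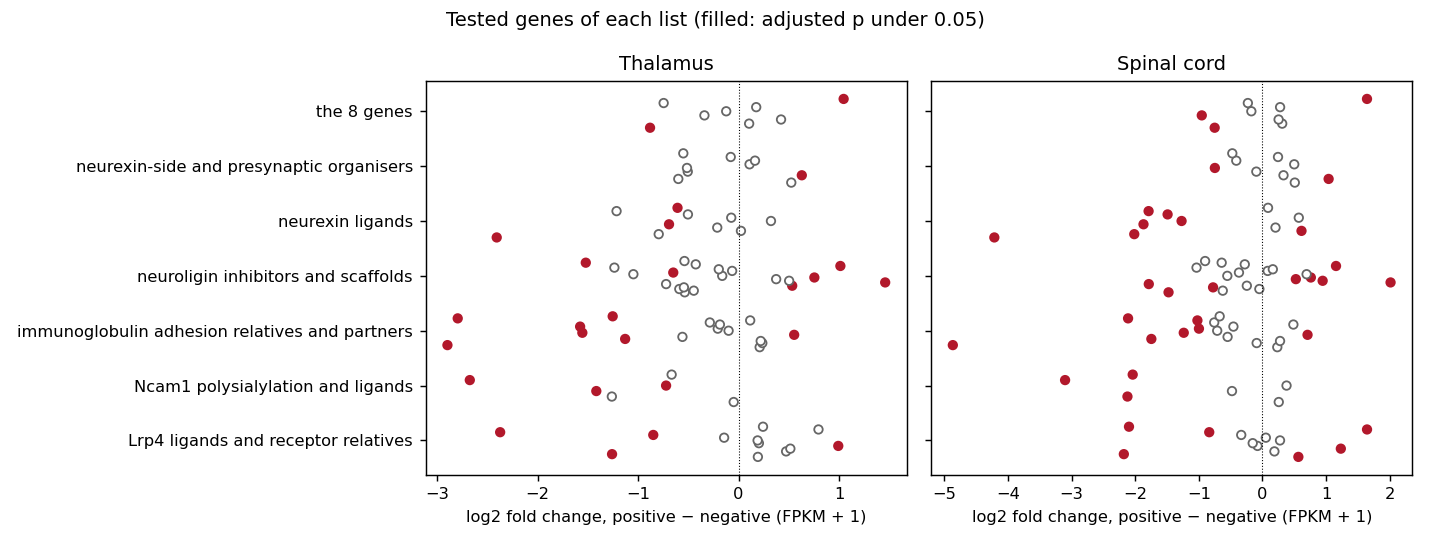
limma log2 fold changes, positive against negative, of each tested gene in the 8 genes and the 6 partner lists, for the thalamus (left) and the spinal cord (right). Filled points have an adjusted p under 0.05; among the partner genes 7 higher and 17 lower are filled on the left, and 11 higher and 22 lower on the right.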

How the data were processed

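Total RNA of sorted cells was isolated with a Qiagen micro kit and turned into libraries with NuGEN chemistry, according to the labels' protocols. Per the submitters' processing notes, the build was GRCm38 and the tools included Bowtie2 2.2.3 and TopHat2 2.0.11 as well as Cufflinks, Cuffnorm and HTSeq 0.6.1p1, with FastQC and DESeq2 also named. The authors deposited FPKM values for 39171 features in 16 libraries, from which all values here were computed. A second table that the authors deposited holds group means in FPKM, a mean signal, a log2 fold change with its error, a test score and p-values. The 8 genes and all lists were chosen with earlier results of these data known.

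Features reaching 1 FPKM in 4 or more libraries were fitted on log2(FPKM + 1) with limma 3.58.1 in R 4.3.3, with 1 coefficient per group and a trended prior over all 16 libraries, in 5 comparisons. The script was checked on simulated data. The same mouse gave a library to each group, per the labels. Same-mouse libraries deviated together with a mean correlation of 0.036 over 24 pairs, against -0.012 over 72 pairs of other mice, so a fit with the mouse as a block was an alternative. Other alternatives were a pseudocount of 0.1, no filter, a filter at 5 FPKM, median-of-ratios rescaling, only the groups compared, and each mouse or library left out.

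From each list the rule took up to 3 genes per direction and gate comparison with the largest change among called genes whose higher group averaged 2 FPKM or more and whose direction was the same in 4 mice, and 1 for the other comparisons. This gave 66 gene and comparison pairs, and those named are from the 38 called under every alternative, a restriction made after values were seen. The latrophilin genes were matched by identifier.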

Additional observations from a re-analysis of the deposited data

Results flagged for a closer look

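In 5 of 32 sets of 4 libraries of 1 gene and group, a single library lay so far from the other 3 that its gap to the nearest, divided by the range, exceeded Dixon's 95% critical value. Chance gives this in about 1 in 20 groups. Nlgn2 stood at 2.07 FPKM in the thalamic negative library of mouse 1, with the others at 7.62 to 8.16. Nrxn2 stood at 28.7 FPKM in the spinal cord negative library of mouse 1, with the others at 9.50 to 11.7. Nrxn3 stood at 93.4 FPKM in the thalamic negative library of mouse 3, with the others at 41.2 to 48.5. Lrp4 stood at 17.8 FPKM in the thalamic negative library of mouse 3, with the others at 14.2 to 14.7, and at 13.4 FPKM in the spinal cord positive library of mouse 2, with the others at 12.3 to 12.4.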

How the results depend on the processing

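With mice or libraries left out, 22 single-gene fold changes turned sign, none of them called. Their log2 ranges were -0.56 to 0.12 for Nrxn2 by gate in the spinal cord; for spinal cord against thalamus, -0.017 to 0.22 for Nlgn1 and -0.29 to 0.041 for Nlgn3 in negative libraries, and -0.10 to 0.10 for Nlgn1, -0.24 to 0.071 for Nrxn2 and -0.11 to 0.0043 for Ncam1 in positive ones; and for the gate difference, -0.22 to 0.10 for Nlgn3, -0.035 to 0.23 for Nrcam and -0.093 to 0.36 for Lrp4. With mice or libraries left out, the number of the 8 genes called ran from 0 to 5 in the thalamus (2 with all libraries), from 1 to 4 in the spinal cord (3), from 0 to 0 for the gate difference (0), from 0 to 3 between regions in negative libraries (1) and from 0 to 1 in positive ones (0). With only the groups compared, 0 genes were called between regions in negative libraries and 2 in positive ones; in positive ones 1 was called with no filter and 1 with a filter at 5 FPKM. The mouse as a replicate block changed no call of the 8 genes, with 2, 3, 0, 1 and 0 called. Over all features, fitting only the groups compared moved the regional counts from 1603 to 353 in negative and from 996 to 4227 in positive libraries, and the filter at 5 FPKM moved the gate difference from 418 to 271. Leaving out libraries moved the gate difference between 129 and 659, the regional counts between 976 and 1808 and between 368 and 1402, and the gate comparisons between 2249 and 4855 in the thalamus and between 1861 and 3906 in the spinal cord. Apart from left-out libraries, 223 single-gene results kept their side of the threshold, 5 passed it and 4 lost it; with libraries left out these were 730, 14 and 34. The cause of these moves was not tested. Depth is unknown, so no counting error is given.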
